A study of Mus musculus with 11 samples.

Results

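The multiciliated cell program was followed through 40 genes: 8 that switch the program on or multiply the centrioles from which cilia grow, and 32 that build the motile cilium or mark the mature ciliated cell. Members were the entries of a gene count table whose symbol is on that list, and 38 of the 40 were found among 24421 entries, 37 under their present symbol and Deup1 under its older symbol Ccdc67. The dynein genes Dnah3 and Dnah12 were not analysed here. All 38 passed the filter on low counts. In libraries lacking Prdm3 and Prdm16 by label, 3 members rose, the regulator Mcidas and the centriole amplification genes Deup1 and Ccno. Another 2 fell (Tekt2 and Ccdc113, both structural), while 33 did not pass the test. That is 13.2% of the members called, against 42.9% of all genes tested.

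Multiciliated cells line the conducting airways and carry many motile cilia that move mucus toward the throat. Their precursors leave the cell cycle when Notch signalling is low, switch on a coactivator that works with E2F factors, multiply centrioles around ring-shaped deuterosomes, dock them as basal bodies and, under FOXJ1 and RFX factors, make the parts of the axoneme. The axoneme is a ring of doublet microtubules around a central pair, with dynein motors bound to the doublets, radial spokes reaching inward, and nexin links that hold neighbouring doublets together.

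The counts are from poly(A) RNA of lung cells of mouse embryos at E17.5, retained on microbeads against the epithelial surface protein EpCAM. The knockout group, 5 libraries labelled PRDM3/16KO, carried floxed Prdm3 and Prdm16 alleles and a Shh-Cre transgene that came through the male germline and acts in the lung epithelium. Breeding was between Prdm3 fl/fl Prdm16 fl/wt ShhCre+ fathers and Prdm3 fl/fl Prdm16 fl/fl mothers, so both parents carried floxed Prdm3 on both copies. The 6 other libraries are labelled Control, with no alleles or Cre status given. Litter, sex and batch are not in the labels, and neither is whether the libraries came from separate animals, so a p-value reflects only the variation among these 11 libraries, which could be technical in part.

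Totals ran from 6065906 to 7869787 counts per library, and single members had from 9 to 8491 counts in a library. Levels are given as CPM, counts rescaled to one library size with TMM (trimmed mean of M values) factors. Prdm16 stood at 173 to 227 CPM in Control and 147 to 181 in knockout libraries (log2 fold change -0.28, edgeR adjusted p = 0.00905), and Mecom, the present symbol of Prdm3, at 206 to 233 and 321 to 354 CPM (0.64, edgeR adjusted p = 3.26e-07). Whole-gene counts include exons outside a floxed segment, so they check the genotype labels only weakly. Mecom rose where the label names a knockout, and these counts do not show whether the floxed segment was lost. A knockout library here means a library labelled PRDM3/16KO. Epcam did not pass the test (log2 fold change 0.05, edgeR adjusted p = 0.601), and 7 genes of epithelial and lung identity summed to 4852 to 5209 CPM in Control and 4728 to 5049 in knockout libraries. Of 13916 genes tested with edgeR, 42.9% were called at an adjusted p under 0.05, 21.1% higher and 21.8% lower in the knockout, and the median log2 fold change over all of them was 0.0023. CPM ranges of the groups did not overlap for 28.5% of genes.

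The promoters of the 5 members that passed the test are shown because the letters bound by RFX factors, themselves members, recur in them. Each is the 250 bases before a RefSeq start site (GRCm38.p6, the mm10 assembly), 5′ to 3′ on the strand of the gene, with GTTGCC or its reverse complement GGCAAC in capitals. Where 6-letter blocks GTNNCC and GGNNAC stand as an inverted pair with 0 to 3 bases between them, the whole pair is in capitals.
Ccno, chr13:112987552-112987801, plus strand: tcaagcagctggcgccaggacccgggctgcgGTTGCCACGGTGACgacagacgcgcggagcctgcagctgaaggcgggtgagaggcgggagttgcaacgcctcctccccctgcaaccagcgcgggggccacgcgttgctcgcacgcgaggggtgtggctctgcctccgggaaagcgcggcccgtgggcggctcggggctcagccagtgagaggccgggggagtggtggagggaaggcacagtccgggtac
Mcidas, chr13:112993618-112993867, plus strand: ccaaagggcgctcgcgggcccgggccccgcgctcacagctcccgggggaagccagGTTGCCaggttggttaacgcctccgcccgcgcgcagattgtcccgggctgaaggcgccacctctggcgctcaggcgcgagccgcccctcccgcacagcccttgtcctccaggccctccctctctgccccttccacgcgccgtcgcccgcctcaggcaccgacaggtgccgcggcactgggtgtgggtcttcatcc
Deup1, chr9:15627847-15628096, minus strand: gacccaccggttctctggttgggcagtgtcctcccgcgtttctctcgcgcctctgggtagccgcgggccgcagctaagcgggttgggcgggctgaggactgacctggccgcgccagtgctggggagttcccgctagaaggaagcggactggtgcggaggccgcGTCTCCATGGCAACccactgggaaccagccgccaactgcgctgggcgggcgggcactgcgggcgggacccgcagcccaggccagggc
Tekt2, chr4:126325689-126325938, minus strand: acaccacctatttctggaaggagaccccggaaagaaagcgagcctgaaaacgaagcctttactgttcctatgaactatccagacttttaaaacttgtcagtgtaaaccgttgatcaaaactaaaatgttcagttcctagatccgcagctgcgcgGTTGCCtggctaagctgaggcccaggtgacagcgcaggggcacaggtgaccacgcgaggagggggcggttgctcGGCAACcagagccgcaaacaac
Ccdc113, chr8:95533850-95534099, plus strand: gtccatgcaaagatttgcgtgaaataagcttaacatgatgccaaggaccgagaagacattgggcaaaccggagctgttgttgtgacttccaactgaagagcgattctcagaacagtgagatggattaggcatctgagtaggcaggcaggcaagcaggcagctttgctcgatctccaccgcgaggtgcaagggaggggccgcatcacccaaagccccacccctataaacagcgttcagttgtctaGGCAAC
In Ccno the pair begins 219 bases before the start and itself contains GTTGCC. Mcidas has GTTGCC 195 bases before its start. In Deup1 the pair begins 87 bases before the start and contains GGCAAC at 79, whereas the window of a further RefSeq start of Deup1 holds neither. Tekt2 has one copy in each orientation, 96 and 22 bases before the start shown. The window of another of its 3 starts covers the same copies, and that of the remaining one holds no match. Ccdc113 has GGCAAC 6 bases before its start.

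Over the whole set, 34 of the 40 genes had 38 such windows, and GTTGCC was found on either strand in 17 of them (44.7%), against 10.4% of 32851 mouse promoter windows of the same length. The share was 50% of 8 windows of regulator and centriole genes and 43.3% of 30 windows of structural genes. Members that were not called held these letters too, among them Rfx2, Spag6, Hydin and Dnah10. Foxj1, Dnah3, Lrrc6, Rsph1, Rsph4a and Tppp3 had no window. The inverted pair was in 4 member windows (10.5%, against 3.21%), those of Ccno, Deup1, Lrrc23 and Tekt4. The forkhead letters GTAAACA were in 2 (5.26%, against 3.17%), those of Ak7 and Sntn. GTTGCC can overlap the pair, so these counts are not independent, and a match is only a match of letters.

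The 8 regulator and centriole genes all had a positive log2 fold change (knockout over Control), from 0.06 to 0.43 with a median of 0.23. Of these, 3 (37.5%) were called, against 42.9% of all genes in either direction. All 3 were higher, where 21.1% of all genes were. None of the 8 had groups that did not overlap, against 28.5% of all genes tested. The 30 structural genes tested had log2 fold changes from -0.61 to 0.44 with a median of -0.09 (0.03 with library sizes left unscaled, where the median of all genes was 0.11), 12 positive and 18 negative. Of them 2 (6.67%) were called, against 42.9% of all genes in either direction. Both were lower, where 21.8% of all genes were. In place of 3 higher and 2 lower, unscaled library sizes gave 7 and 1, and upper-quartile factors 6 and 2. Over all 38 members 13.2% were called against 42.9% of genes, and 1 (2.63%), Tekt2, had groups that did not overlap, against 28.5% of genes. The unadjusted 95% interval of the difference lay within 1.5-fold in each direction for 31 of the 38, and for 7926 of all 13916 genes tested. The called members Mcidas and Ccno are among the 31. For most members the data thus bound the size of the difference, whether or not it was called. In bulk RNA, fewer ciliated cells and less RNA per ciliated cell cannot be told apart.

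**Figure D1:**
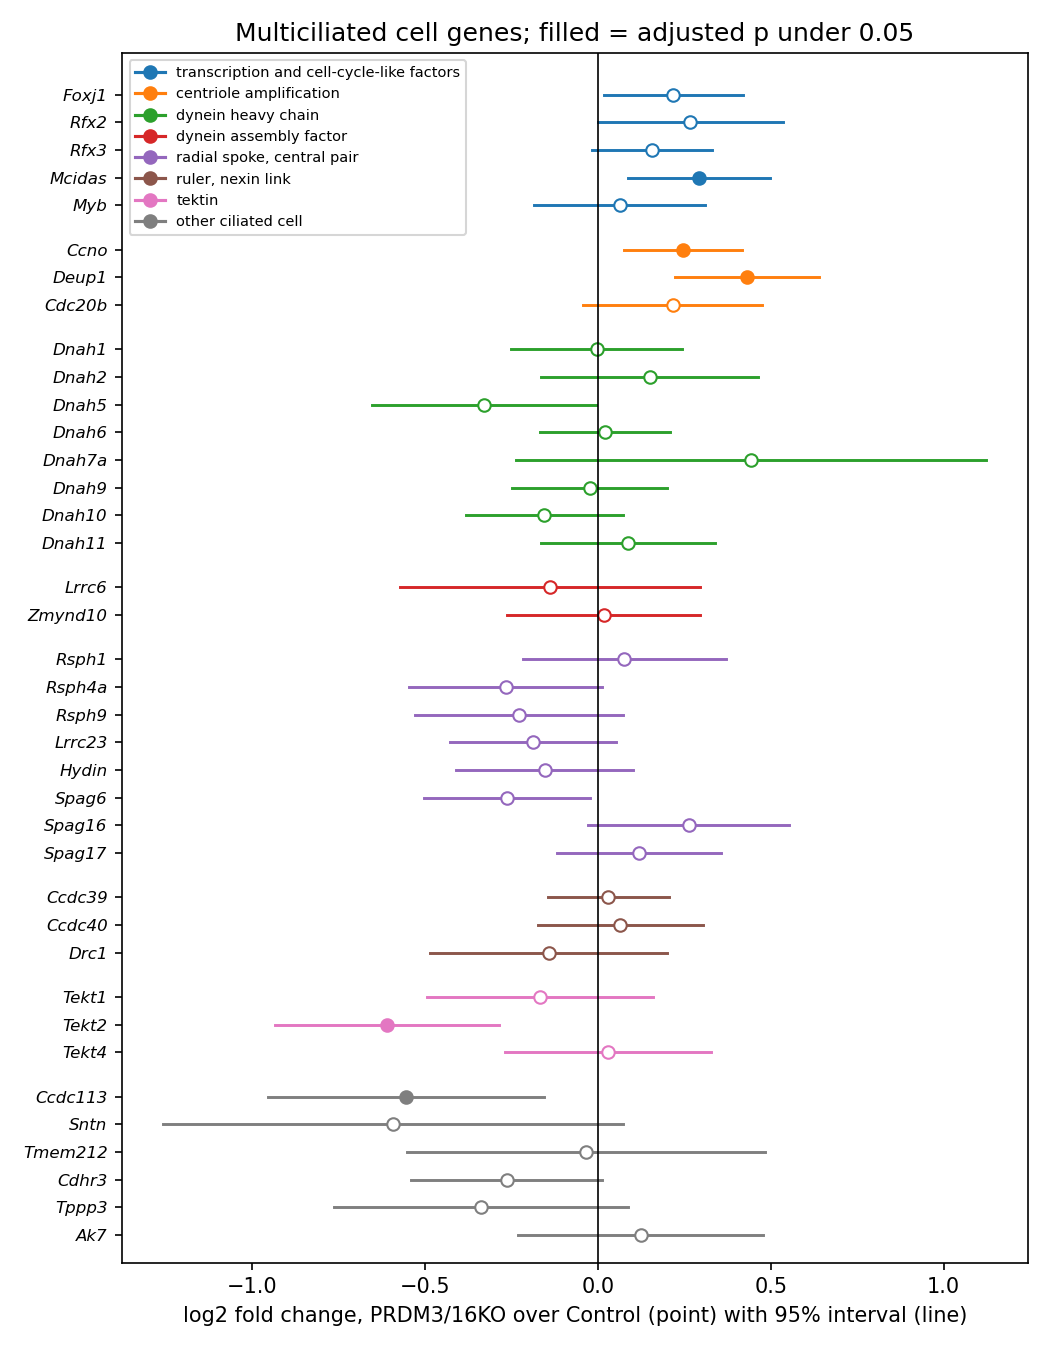
Each line is a member, grouped by role, with its log2 fold change (knockout over Control, x axis) as a point and its unadjusted 95% interval as a bar, and points are filled where the edgeR adjusted p is under 0.05. The 8 regulator and centriole genes at the top all lie right of 0, from 0.06 to 0.43, and the structural genes below spread on both sides, from -0.61 to 0.44.

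Mcidas encodes multicilin, the coactivator that starts the program together with E2F factors. It lies at chr13:112993845-113000394 (mm10, plus strand), a few kilobases beyond Ccno and ahead of Cdc20b on the same strand. Its Control libraries ran from 60.0 to 87.7 CPM with a median of 77.4, and knockout libraries 1 to 5 were at 99.6, 77.3, 93.2, 94.7 and 99.7 CPM. Apart from knockout library 2, just below the Control median, every knockout library was above every Control library. Mcidas rose from 75.7 ± 10.4 CPM (SD, n = 6) to 92.9 ± 9.20 (SD, n = 5), a log2 fold change of 0.29 ± 0.10 (SE) with an edgeR adjusted p = 0.0231. The call was lost without Control library 3 (edgeR adjusted p = 0.0533), knockout library 1 (0.0594) or knockout library 5 (0.0602).

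Foxj1, the forkhead factor that turns on motile cilium genes, was the most abundant member per length, at 330 ± 48.0 CPM per kilobase of exon in Control and 384 ± 24.5 in knockout libraries. It was at 756, 842 and 1108 CPM in the lowest, median and highest Control library and at 1023, 915, 1087, 979 and 1031 CPM in the knockout libraries. Control library 4 alone, at 1108 CPM, stood above the knockout libraries, and the next Control library was at 866 CPM, below all 5 of them. Foxj1 did not pass the test (log2 fold change 0.22, SE 0.09, 95% interval 0.02 to 0.42, edgeR adjusted p = 0.0736). Without Control library 4 it passed, at 0.30 on the log2 scale (edgeR adjusted p = 0.00235), and without knockout library 2 as well (0.27, edgeR adjusted p = 0.0403). With all 11 libraries Foxj1 passed in the DESeq2 Wald test (adjusted p = 0.0430), without the filter on low counts (edgeR adjusted p = 0.0495), with upper-quartile factors (edgeR adjusted p = 0.0208) and with unscaled library sizes (edgeR adjusted p = 0.00733).

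RFX2 and RFX3 bind the promoters of ciliary genes and act with FOXJ1. Rfx2 ran from 34.0 to 56.0 CPM in Control (median 36.7) and was at 57.6, 46.4, 47.6, 43.2 and 42.1 CPM in knockout libraries 1 to 5. Control library 4 held its high value, and the other 5 Control libraries, at up to 38.8 CPM, were below every knockout library. Its log2 fold change was 0.27 (SE 0.13, edgeR adjusted p = 0.10), and 0.39 without Control library 4 (edgeR adjusted p = 0.00197). Rfx3 ran from 62.5 to 77.7 CPM in Control (median 70.8) and was at 91.5, 66.3, 79.3, 73.5 and 82.5 CPM in the knockout, a difference of 0.16 ± 0.08 (SE) on the log2 scale with an edgeR adjusted p = 0.139. Knockout libraries 2 and 4 lay within its Control range, and without knockout library 2 Rfx3 passed (0.23, edgeR adjusted p = 0.0300).

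Myb, a transcription factor of early multiciliated precursors that is also used by dividing cells, showed the smallest log2 fold change of the 8 genes, 0.06 (95% interval -0.18 to 0.31, edgeR adjusted p = 0.691). Its Control libraries ran from 57.4 to 88.6 CPM (median 63.2) and its knockout libraries were at 80.6, 59.1, 74.1, 61.0 and 75.5 CPM, all inside the Control range. The 5 transcription and cell-cycle-like factors together had a median log2 fold change of 0.22, and 1 of them, Mcidas, rose.

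The centriole amplification genes held 2 of the 3 members that rose. Deup1, which builds the deuterosome on which new centrioles form, lies at chr9:15559864-15627933 (mm10, minus strand). Its Control libraries ran from 44.2 to 63.1 CPM with a median of 55.6, and the knockout libraries were at 74.4, 62.7, 77.1, 73.2 and 78.7 CPM. Only knockout library 2 was below a Control library, library 5 at 63.1 CPM, so the groups overlapped by that pair. Deup1 rose from 54.2 ± 8.05 (SD, n = 6) to 73.2 ± 6.28 CPM (SD, n = 5), or by 34.9% (95% interval 16.7 to 55.8%), which is 0.43 ± 0.10 (SE) on the log2 scale with an edgeR adjusted p = 0.00223. The call held when any single library was left out. The gene span of an antisense transcript, 4930540M03Rik, which has its own entry among the counts, overlaps that of Deup1. Whether exons overlap was not examined and the strand setting is not known, so any effect on the Deup1 count is uncertain.

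Ccno, a cyclin-like protein needed for centriole multiplication and docking, lies at chr13:112987802-112990777 (mm10, plus strand). It ran from 173 to 242 CPM in Control (median 199) and was at 245, 215, 249, 234 and 258 CPM in the knockout. Knockout libraries 2 and 4 fell below Control library 4, the highest Control, and the 3 other knockout libraries were above it. Ccno rose from 202 ± 23.5 (SD, n = 6) to 240 ± 16.8 CPM (SD, n = 5), which is 0.25 ± 0.08 (SE) on the log2 scale with an edgeR adjusted p = 0.0224. The call was lost without Control library 3 (edgeR adjusted p = 0.0511), knockout library 3 (0.0519) or knockout library 5 (0.0617).

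Cdc20b, a relative of the mitotic regulator CDC20 that acts in releasing centrioles from deuterosomes, ran from 30.2 to 46.5 CPM in Control (median 36.9) and was at 53.4, 36.5, 43.8, 38.9 and 47.6 CPM in the knockout. The groups overlapped, with 4 of 5 knockout libraries above the Control median, and the log2 fold change was 0.22 (95% interval -0.04 to 0.48, edgeR adjusted p = 0.168). Cdc20b, Mcidas and Ccno are neighbours on chromosome 13. The gene span of Cdc20b overlaps those of Mir449a, Mir449b and Mir449c on the same strand, which have their own entries among the counts. It also overlaps that of Gpx8 on the opposite strand. Whether exons overlap was not examined, so the value of Cdc20b is uncertain.

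**Figure D2:**
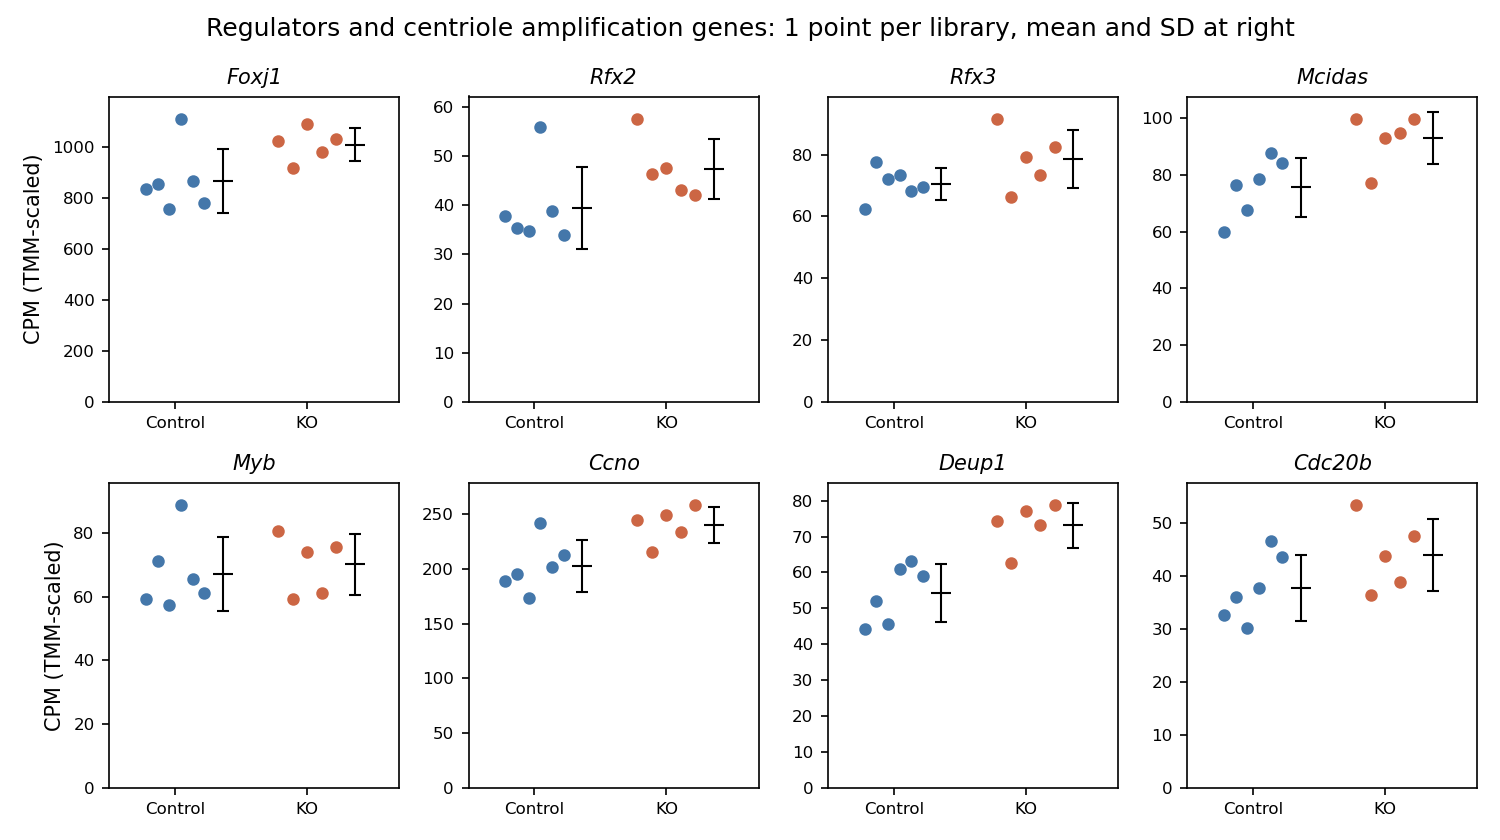
Each panel is a regulator or centriole gene, each point a library (y axis, CPM from 0), and the bar at the right of each group is the mean with its SD (6 Control, 5 knockout). The Deup1 groups overlap by a single pair of libraries, 62.7 CPM in the knockout and 63.1 in Control, and for Foxj1 and Rfx2 a single Control library, at 1108 and 56.0 CPM, reaches the knockout values.

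A fit with a term for Y-linked transcripts left 1 member higher, Deup1, and 1 lower, Tekt2. Such transcripts were abundant in 4 Control libraries (1, 3, 4, 5) and 1 knockout library (4) and scarce in the 6 others, so they moved with the genotype groups. With that term the log2 fold change was 0.26 for Mcidas (edgeR adjusted p = 0.0774), 0.23 for Ccno (edgeR adjusted p = 0.0723) and -0.47 for Ccdc113 (edgeR adjusted p = 0.104). Among the 6 libraries with low Y-linked transcripts alone, Deup1 and Rfx2 rose and no member fell. Among the 5 with high Y-linked transcripts, where the knockout has 1 library that is assumed to vary like the Control ones, no member rose and Dnah5 fell.

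Axonemal dynein heavy chains are the motors of the outer and inner arms that slide the doublets. None of the 8 tested passed, and their median log2 fold change was 0.01, with 4 positive and 4 negative. Dnah10, an inner arm chain and the most abundant of them per length (5.71 ± 0.57 CPM per kilobase in Control, 5.12 ± 0.92 in the knockout), ran from 82.5 to 104 CPM in Control (median 88.9). It was at 104, 66.2, 88.7, 72.7 and 80.2 CPM in the knockout libraries, of which 2, 4 and 5 were below every Control library and 1 and 3 were not. Its log2 fold change was -0.16 (95% interval -0.38 to 0.07, edgeR adjusted p = 0.258), and without knockout library 1 it fell by 0.25 (edgeR adjusted p = 0.0468).

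Dnah6, also an inner arm chain, ran from 44.4 to 53.9 CPM in Control (median 48.8) and was at 58.3, 44.1, 54.8, 43.9 and 46.9 CPM in the knockout. Knockout libraries lay on both sides of the Control range, and the log2 fold change was 0.02 (95% interval -0.17 to 0.21, edgeR adjusted p = 0.875). Dnah9 and Dnah5, both outer arm chains, were chosen after their values were seen. Dnah9 was at 47.8, 57.8 and 66.2 CPM in the lowest, median and highest Control library and at 65.2, 48.3, 65.1, 50.9 and 50.7 in the knockout (-0.02, 95% interval -0.25 to 0.20, edgeR adjusted p = 0.879). Dnah5 was at 31.5, 49.1 and 63.1 CPM in Control and at 47.7, 34.8, 41.0, 31.1 and 38.7 in the knockout (-0.33, 95% interval -0.65 to -0.01, edgeR adjusted p = 0.0928). Control library 6 was the low Control library for both of these chains, and without it Dnah5 fell by 0.43 on the log2 scale (edgeR adjusted p = 0.00471). The 4 other chains had log2 fold changes of -0.0035 (Dnah1), 0.15 (Dnah2), 0.09 (Dnah11) and 0.44 (Dnah7a). Dnah7a was counted at 1.24 to 4.48 CPM over all libraries, with an interval of -0.24 to 1.12 for its log2 fold change, and shares sequence with its paralogs Dnah7b and Dnah7c. Dnah11 overlaps Cdca7l on the opposite strand.

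Dynein arms are put together in the cytoplasm with the help of assembly factors. Zmynd10 ran from 49.1 to 91.0 CPM in Control (median 57.1) and was at 60.7, 56.2, 68.3, 58.7 and 65.6 CPM in the knockout, inside the Control range. Its log2 fold change was 0.02 (95% interval -0.26 to 0.29, edgeR adjusted p = 0.936). Lrrc6 ran from 10.1 to 19.1 CPM in Control (median 12.7) and was at 12.5, 6.96, 15.4, 10.0 and 14.9 CPM in the knockout (-0.14, 95% interval -0.57 to 0.29, edgeR adjusted p = 0.612). Only the 6.96 CPM of knockout library 2 and the 10.0 of library 4 were below its Control range.

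Radial spoke and central pair genes set the waveform of the beat. Of 8, none passed, 5 were negative and 3 positive, and the median log2 fold change was -0.17. Lrrc23, a spoke protein at 127 ± 22.3 CPM per kilobase in Control and 112 ± 13.3 in the knockout, ran from 188 to 294 CPM in Control (median 209). Its knockout libraries were at 218, 159, 204, 182 and 204 CPM, with libraries 2 and 4 below the Control range (log2 fold change -0.19, 95% interval -0.43 to 0.05, edgeR adjusted p = 0.195). Rsph4a, a spoke head protein, ran from 124 to 217 CPM in Control (median 152) and was at 145, 121, 161, 120 and 133 CPM in the knockout. Its groups overlapped and its log2 fold change was -0.27 (95% interval -0.55 to 0.01, edgeR adjusted p = 0.115). Without Control library 6, the lowest Control, Rsph4a fell by 0.34 (edgeR adjusted p = 0.0292).

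The spoke head gene Rsph9 (-0.23), the central pair genes Hydin (-0.15) and Spag6 (-0.26, 95% interval -0.50 to -0.02), and Rsph1 (0.08), Spag16 (0.26) and Spag17 (0.12) did not pass either. Spag16 passed without Control library 4 (0.37, edgeR adjusted p = 0.0112), and Spag6 without Control library 6 (-0.31, edgeR adjusted p = 0.0298). Spag6 has the near copy Spag6l, and the gene spans of Rsph9 and Spag17 overlap those of Mrps18a and Wdr3, so their counts are uncertain. Whether exons overlap was not examined.

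Ccdc39 and Ccdc40 form the ruler that spaces arms and spokes along the doublet, and Drc1 is part of the nexin-dynein link. Ccdc40 ran from 101 to 150 CPM in Control (median 105) and was at 134, 95, 132, 110 and 117 CPM in the knockout (log2 fold change 0.06, 95% interval -0.17 to 0.30, edgeR adjusted p = 0.673). Ccdc39 ran from 35.3 to 43.7 CPM in Control (median 38.0) and was at 46.0, 34.4, 41.2, 37.1 and 37.6 CPM in the knockout (0.03, 95% interval -0.14 to 0.21, edgeR adjusted p = 0.796). The groups overlapped for both, with knockout library 2 below the lowest Control library each time. Drc1 was at 9.41 to 15.1 CPM in Control and 7.62 to 14.1 in the knockout (-0.14, edgeR adjusted p = 0.505). Ccdc39 overlaps Ttc14 on the opposite strand.

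Tektins are filament proteins inside the doublet wall, and 1 of the 3 fell. Tekt2 lies at chr4:126322121-126325688 (mm10, minus strand), with the 2 promoter matches printed above. It ran from 16.2 to 29.0 CPM in Control with a median of 18.8, and knockout libraries 1 to 5 were at 13.3, 9.46, 14.6, 14.0 and 14.6 CPM. Every knockout library was below every Control library, and Tekt2 was the single member of which this was true. Among all genes tested, the groups did not overlap for 28.5%. It fell by 0.61 on the log2 scale (SE 0.15, edgeR adjusted p = 0.00426), from 20.2 ± 4.51 CPM (SD, n = 6) to 13.2 ± 2.15 (SD, n = 5), and stayed called when any single library was left out. Among the 6 libraries with low Y-linked transcripts its log2 fold change was -0.45 (edgeR adjusted p = 0.109). The gene span of Tekt2 overlaps Gm12945 on the opposite strand, which has no entry under that symbol. Whether exons overlap was not examined, so the Tekt2 count is uncertain to that extent.

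The other tektins did not pass. Tekt4 ran from 41.4 to 74.5 CPM in Control (median 47.6) and was at 53.6, 45.5, 58.1, 43.7 and 56.1 CPM in the knockout, inside the Control range (log2 fold change 0.03, 95% interval -0.27 to 0.33, edgeR adjusted p = 0.890). Tekt1 ran from 20.4 to 35.4 CPM in Control (median 24.2) and was at 24.8, 21.2, 28.8, 17.0 and 21.3 CPM in the knockout (-0.17, 95% interval -0.49 to 0.16, edgeR adjusted p = 0.409). Only knockout library 4 was below its Control range.

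Among 6 other genes of ciliated cells the median log2 fold change was -0.30, with 5 negative, and 1 fell. Ccdc113, a coiled-coil protein of the axoneme and centriolar satellites, lies at chr8:95534085-95558890 (mm10, plus strand). It ran from 8.47 to 17.2 CPM in Control (median 11.3) and was at 9.42, 5.65, 8.07, 7.98 and 8.88 CPM in the knockout. Control libraries 3 and 6 were within the knockout range, so the groups overlapped. Ccdc113 fell by 0.56 on the log2 scale (SE 0.19, edgeR adjusted p = 0.0256), from 11.8 ± 3.29 CPM (SD, n = 6) to 8.0 ± 1.44 (SD, n = 5). The call was lost without Control library 5 (edgeR adjusted p = 0.0561), without knockout library 2 (0.0758), and with library sizes left unscaled (0.0638). The gene span of Ccdc113 overlaps 1700112L15Rik on the same strand, which has no entry under that symbol. Whether exons overlap was not examined, so the Ccdc113 count is uncertain to that extent.

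Tppp3, a tubulin-binding protein and the most abundant structural member per length (162 ± 58.8 CPM per kilobase in Control, 128 ± 14.0 in the knockout), ran from 186 to 508 CPM in Control (median 275). Its knockout libraries, at 246, 208, 276, 224 and 231 CPM, all lay inside that wide range (log2 fold change -0.34, 95% interval -0.76 to 0.09, edgeR adjusted p = 0.187). Tmem212, a membrane protein of multiciliated cells, ran from 14.3 to 47.7 CPM in Control (median 24.7) and was at 27.2, 20.0, 31.2, 23.9 and 26.4 CPM in the knockout (-0.03, 95% interval -0.55 to 0.48, edgeR adjusted p = 0.927). Sntn, which encodes sentan of the ciliary tip and was chosen after its values were seen, ran from 9.51 to 45.2 CPM in Control (median 23.3). In the knockout Sntn was at 16.8, 12.9, 22.5, 13.4 and 14.9 CPM (-0.59, 95% interval -1.26 to 0.07, edgeR adjusted p = 0.140). For Tppp3, Tmem212 and Sntn, Control library 4 was the highest and Control library 6 the lowest of all 11 libraries, so the Control group alone spanned more than both groups differed by. Without Control library 6, Sntn fell by 0.77 (edgeR adjusted p = 0.0192), Tppp3 by 0.44 (edgeR adjusted p = 0.0482) and Cdhr3, a cadherin-related surface protein, by 0.34 (edgeR adjusted p = 0.0212). With all libraries Cdhr3 was at -0.26 and the adenylate kinase gene Ak7 at 0.12, neither called.

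**Figure D3:**
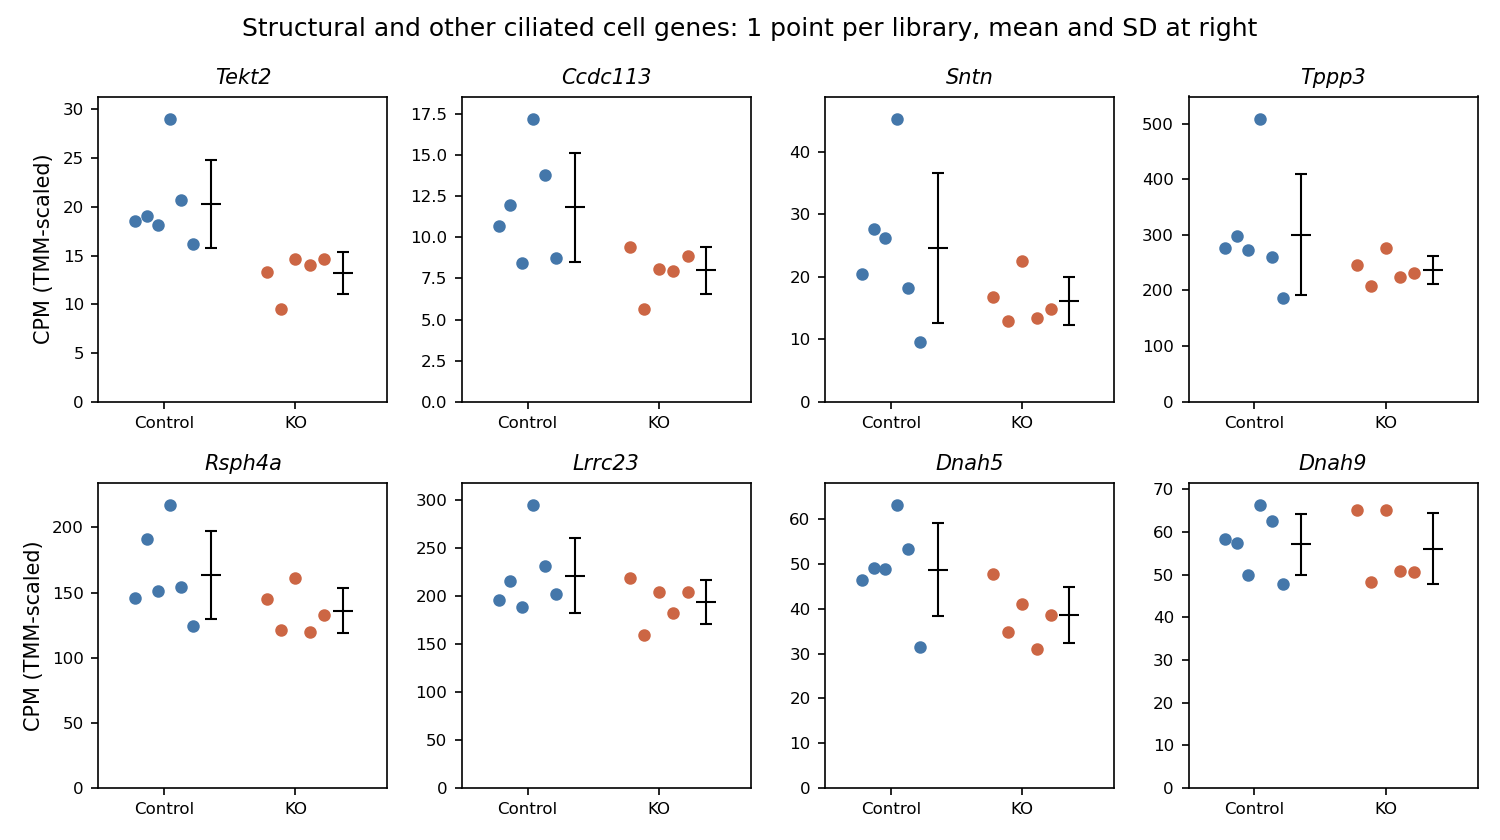
Each panel is a structural or other ciliated cell gene, each point a library (y axis, CPM from 0), with the mean and SD of 6 Control and 5 knockout libraries at the right of each group. Tekt2 separates the groups, with knockout libraries at up to 14.6 CPM and Control libraries from 16.2 CPM, whereas Tppp3 and Sntn have Control points on both sides of the knockout ones.

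Many members were high or low in the same libraries. Control library 4 was the highest Control for 29 of 38 members (25 of 30 structural), Control library 6 the lowest for 20 (19 structural), and knockout library 2 the lowest knockout for 29 (22 structural). The median log2 ratio of the structural genes to the Control mean was 0.44 in Control library 4, -0.27 in Control library 6 and -0.40 in knockout library 2. Without Control library 4, 6 members rose, adding Foxj1, Rfx2 and Spag16, and without Control library 6, 8 fell, adding Dnah5, Rsph4a, Spag6, Sntn, Cdhr3 and Tppp3. Without knockout library 2, 5 rose, Foxj1 and Rfx3 among them, 1 fell, and the structural median turned to 0.03.

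**Figure D4:**
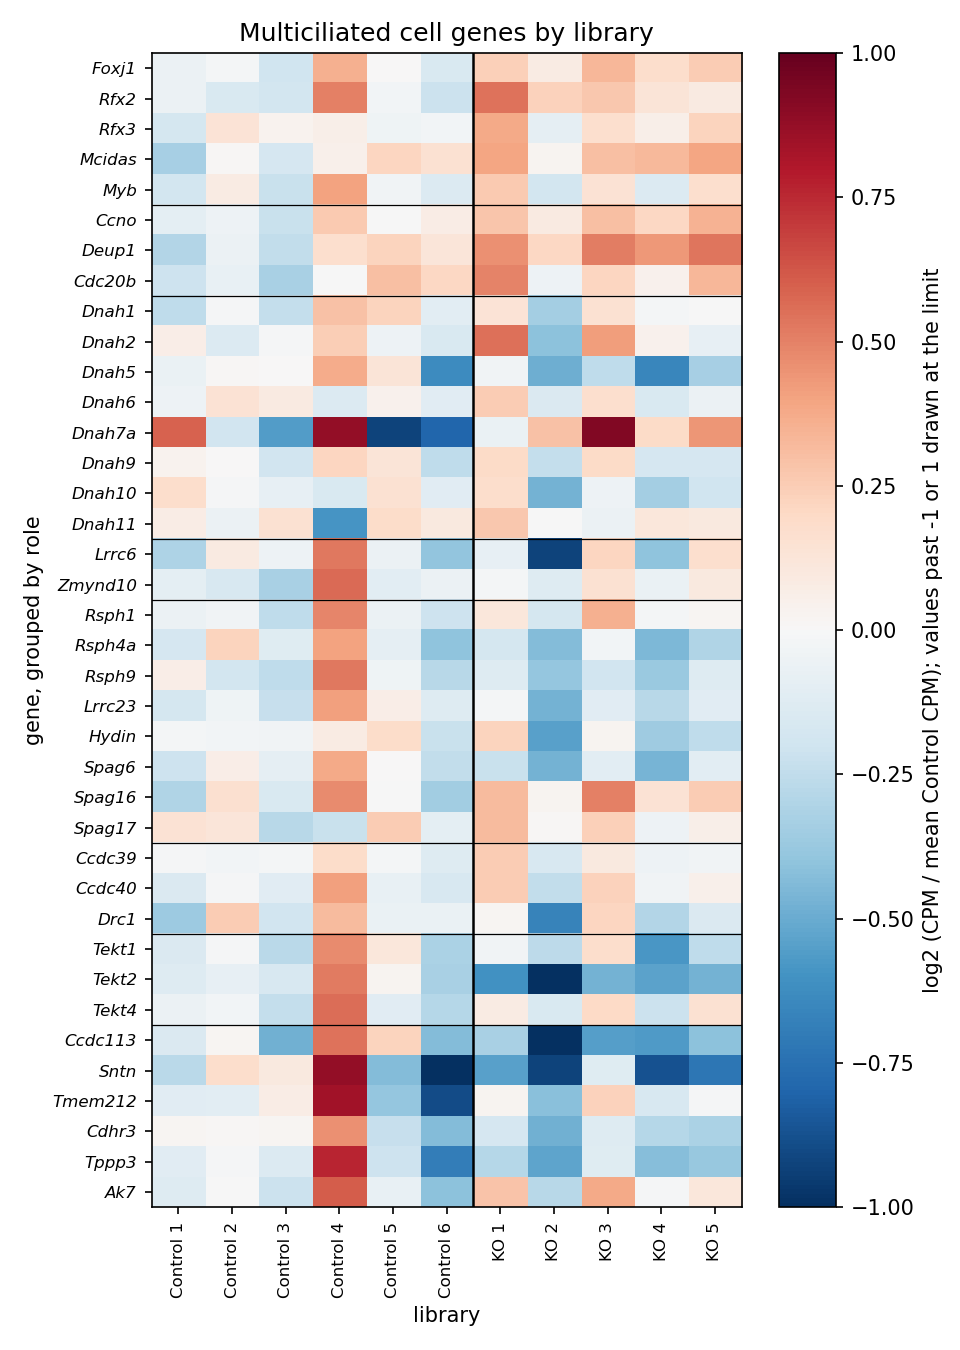
Rows are the 38 members by role, columns the 11 libraries, and the colour is the log2 ratio of CPM to the mean Control CPM, drawn at the limit past -1 or 1. The column of Control library 4 is mostly red (median 0.44 for structural genes), those of Control library 6 and knockout library 2 mostly blue (-0.27 and -0.40), and the top 8 lines are mostly red in the knockout columns.

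Other transcripts moved with these libraries too. A list of 18 proliferation genes summed to 314 CPM in Control library 4, 816 in library 5 and 1126 in library 6, against 460 to 531 in the other Control and 438 to 591 in the knockout libraries. The 18 airway secretory markers summed to 1205 CPM in Control library 6 and 2547 in Control library 4, with 1654 to 2376 in the knockout, where 6 of 17 tested were higher and 3 lower. The 13 blood and immune markers summed to 252 CPM in Control library 6 and 1224 in Control library 4, and to 465 to 810 in the knockout, with 3 of them at 0 counts in all libraries. Of the 8 tested, 4 were higher and 0 lower, with a median log2 fold change of 1.06, while Lyz1, not called, made up most of the sum (692 CPM in Control, 491 in the knockout). Between the genotypes, 12 neuroendocrine markers summed to 49.2 to 79.2 CPM in Control and 607 to 753 in the knockout (9 of 11 tested higher), and 7 basal cell markers to 205 to 357 and 398 to 605 (4 of 6 higher, 1 lower). Alveolar type 2 markers summed to 7356 to 13040 CPM in Control and 2541 to 3851 in the knockout, all 11 lower, mesothelial markers to 161 to 304 and 455 to 575 (6 of 7 tested higher), mesenchymal markers to 720 to 1142 and 1071 to 1948 (8 of 13 higher), and endothelial markers to 66.7 to 107 and 53.6 to 76.2 (3 of 7 higher, 1 lower). Called in either direction were 42.9% of all genes tested, beside 52.9% of the secretory, 50.0% of the blood and immune and 57.1% of the endothelial markers. The shares were 81.8% for neuroendocrine, 83.3% for basal, 100% for type 2, 85.7% for mesothelial and 61.5% for mesenchymal markers, and 11.1% for proliferation genes. No marker was at 0 counts in every library, apart from the 3 of blood and immune cells. The part of any of these in the members' values was not tested.

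Summed levels put the contrast between the 8 regulator and centriole genes and the 30 structural genes on a per-library basis. The 8 genes summed to 1318, 1396, 1237, 1745, 1438 and 1345 CPM in Control libraries 1 to 6 and to 1725, 1478, 1752, 1597 and 1715 CPM in knockout libraries 1 to 5. The 30 structural genes summed to 1583, 1710, 1544, 2291, 1655 and 1355 CPM in Control and to 1705, 1294, 1736, 1405 and 1529 CPM in the knockout. Both sums overlapped between the groups, with Control library 4 high in each. The ratio of the first sum to the second, which no scaling of library size alters, was 0.832, 0.817, 0.801, 0.761, 0.869 and 0.993 in Control and 1.01, 1.14, 1.01, 1.14 and 1.12 in the knockout, and those ranges did not overlap. The ratio was formed after the values were seen and has no test. Foxj1 makes up most of the first sum, and without it the ratios, 0.278 to 0.417 in Control and 0.383 to 0.447 in the knockout, overlapped, as did those of Ccno, Deup1 and Cdc20b alone to the structural genes (0.149 to 0.233 and 0.213 to 0.251).

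**Figure D5:**
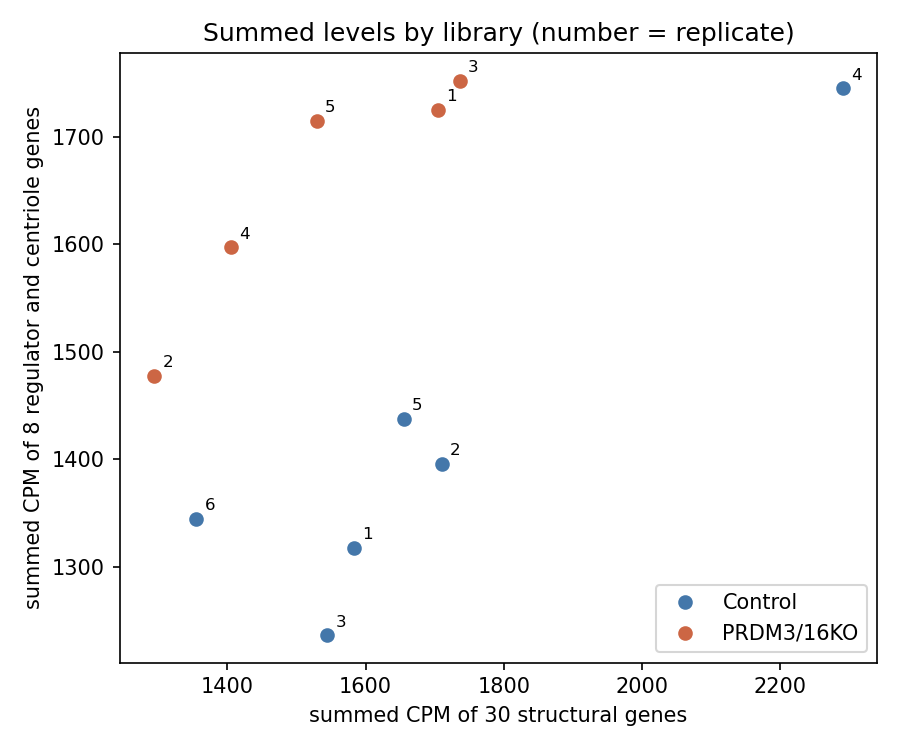
Each point is a library, numbered by replicate, with the CPM summed over 30 structural genes on the x axis and over 8 regulator and centriole genes on the y axis. Knockout points lie above Control points of a like structural sum, as in knockout library 1 (1705 and 1725 CPM) beside Control library 2 (1710 and 1396 CPM), while Control library 4 is high on both axes (2291 and 1745 CPM).

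Outside the members, a list of 11 further genes, regulators of multiciliation together with E2F and RFX family genes, held 10 tested genes. Of these, 1 rose and 2 fell, 30.0% called against 42.9% of all genes. Tfdp1, the dimer partner of E2F factors, rose from 40.7 ± 3.20 CPM to 48.1 ± 3.91, by 0.24 on the log2 scale (edgeR adjusted p = 0.0173). E2f4, with which multicilin acts, fell by 0.27, from 66.8 ± 4.41 to 55.4 ± 2.29 CPM (edgeR adjusted p = 0.00276). The groups of both genes did not overlap (20.0% of the genes tested on this list, against 28.5% of all genes tested). Tfdp1 was apart only narrowly, at up to 44.49 CPM in Control and from 44.64 CPM in knockout libraries. Trp73, a p53 family factor that regulates Foxj1 and other members, fell by 0.36, from 77.4 ± 9.45 to 60.3 ± 7.42 CPM (edgeR adjusted p = 0.00782). With library sizes left unscaled, neither E2f4 nor Trp73 was called, and Tfdp1 was not called without knockout library 2 or with the Y-linked term. In the Notch pathway, low activity of which permits the ciliated fate, 6 of 17 tested genes rose and 2 fell, 47.1% called against 42.9% of all genes. The ligand gene Dll1 rose from 4.16 ± 0.78 to 13.0 ± 2.61 CPM, by 1.64 on the log2 scale (edgeR adjusted p = 1.16e-06), and Nrarp, a target and inhibitor of the pathway, fell by 0.93, from 61.4 ± 8.50 to 32.2 ± 5.48 CPM (edgeR adjusted p = 1.07e-05). Dll3, Mfng and Notch4 were among the others that rose, and the ligand gene Jag1 was the other that fell. None of the targets Hes1, Hes5, Hey1, Hey2 and Heyl was called lower, and the activity of the pathway was not tested. Markers of neuroendocrine cells, which also carry Notch ligands, were higher in the same libraries, as given above, and their part in these values was not tested.

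Beside the centriole amplification members, 27 other centriole and basal body genes were tested, of which 10 rose and 4 fell, 51.9% against 42.9% of all genes, with a median log2 fold change of 0.12. Cep97, a cap protein of the mother centriole, rose from 22.8 ± 2.82 to 36.4 ± 4.32 CPM (0.67, edgeR adjusted p = 6.27e-05), and its partner Ccp110 fell by 0.47, from 141 ± 11.1 to 102 ± 9.07 CPM (edgeR adjusted p = 9.57e-05). Sass6, of the centriole cartwheel, rose from 11.3 ± 1.90 to 17.6 ± 2.29 CPM (0.63, edgeR adjusted p = 8.99e-04), and Cep152, a platform for new centrioles, from 32.5 ± 4.09 to 45.2 ± 5.02 (0.47, edgeR adjusted p = 0.00108). The subdistal appendage gene Nin rose by a log2 fold change of 0.49, whereas Cep63 (-0.49), Poc1a (-0.64) and Ofd1 (-0.28) fell, Ofd1 not without knockout library 2 or with unscaled library sizes. Most of these genes also serve the ordinary centrioles of dividing cells.

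Other motile cilium genes were counted in the same way. In 3 further lists of dynein arm, spoke, central pair, nexin link and other multiciliated cell genes, 105 of 114 genes were tested, 5 rose and 7 fell (11.4% against 42.9%), and the median log2 fold change was 0.01. Among those that fell were the outer arm chain Dnah17 (from 8.71 ± 1.73 to 4.40 ± 0.92 CPM, -0.97, edgeR adjusted p = 3.79e-04), the central apparatus gene Spef1 (93.5 ± 12.5 to 67.2 ± 6.82 CPM, -0.48, edgeR adjusted p = 6.93e-04) and the axonemal gene Cfap53 (17.8 ± 3.99 to 9.47 ± 2.33 CPM, -0.91, edgeR adjusted p = 6.40e-04). Tubb4b, Stk33 and Fam216b also fell, and lost their calls in 6, 8 and 10 of 24 alternative settings. Dnah17 lost its call in 2 of them, Spef1 in 1 and Cfap53 in 0. Those that rose were Stoml3, Cfap57, Kif27, Tekt5 and Cfap61, the last 2 not called in 3 alternative settings each. Stoml3 had the largest log2 fold change of them, 2.44, from 0.614 ± 0.328 to 3.45 ± 0.807 CPM (edgeR adjusted p = 7.09e-06), and Cfap57 went from 14.2 ± 2.31 to 25.2 ± 2.77 CPM (0.83, edgeR adjusted p = 2.80e-05). Of 44 genes of intraflagellar transport and the primary cilium, which most cell types use, 4 rose and 1 fell, again 11.4%.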

How the data were processed

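The authors deposited raw counts, whole numbers per gene symbol, for poly(A) RNA of 6 Control and 5 PRDM3/16KO libraries, per the labels. The build was mm10, and the tools were HTSeq 2.0, Picard 2.18.22, SAMtools 1.10.0, Bowtie2 2.4.2, Trim Galore 0.4.2, FastQC and DESeq2, per the submitters' processing notes, which assign no roles. Which annotation and strand setting were used, and how duplicates and multi-mapping reads were handled, is not given in the sources used here. Date-like symbols (27) and 2 symbols standing more than once stayed in the totals and were not named.

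Genes passing edgeR's filterByExpr (13916) were TMM-scaled and tested across the whole table with the edgeR 4.0.16 quasi-likelihood F-test (robust, two-sided, R 4.3.3), Benjamini-Hochberg adjusted, at a threshold of 0.05. CPM uses the scaled library sizes of the fit. The SE was taken as coefficient over root F, and its 95% intervals are unadjusted. Lengths and coordinates (counted from 1) are from GENCODE M21, on the same build. Promoter sequences are from RefSeq (GRCm38.p6).

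Members and lists were chosen with earlier results of these data known. Named in full were the 8 regulator and centriole genes, every called member, the 2 structural members of each role with the highest CPM per kilobase, and up to 4 called genes per direction from other lists, a part of which is named. Dnah5, Dnah9 and Sntn were chosen after their values were seen. The steps were tested on simulated data, where the limit set for 4-fold changes had to be loosened once its outcome was known.

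Alternatives were 3 scalings (unscaled library sizes, upper quartiles, DESeq2 size factors), 2 filters (none, or 1 CPM or more in 5 libraries), 2 tests (limma-voom from limma 3.58.1, and the Wald test of DESeq2 1.42.0), no robust moderation, the replicate block, a Y-linked covariate, each library left out, Control libraries 5 and 6 left out, and a threshold of 0.01. Fits of the libraries with low or with high Y-linked transcripts alone (divided at a mean of 3 log2 CPM) were chosen after seeing the data.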

Additional observations from a re-analysis of the deposited data

Results flagged for a closer look

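For 14 of 76 sets of values, each a member in one group, the highest or lowest library stood apart from the others by Dixon's 95% criterion, which chance meets in about 5% of sets. The sets share libraries, so they are not independent. Of the 14, 12 concern Control library 4. It was the highest Control library for Foxj1 (1108 CPM, the next at 866), Rfx2 (56.0, next 38.8), Zmynd10 (91.0, next 59.0), Rsph1 (20.5, next 14.2), Rsph9 (21.1, next 15.3) and Ccdc39 (43.7, next 38.2). It was also the highest for Ccdc40 (150 CPM, next 112), Tekt2 (29.0, next 20.7), Tekt4 (74.5, next 49.5), Tppp3 (508, next 298) and Ak7 (73.2, next 47.9). For Dnah11 it was the lowest Control library (15.8 CPM, the next at 22.8). Knockout library 2 was the lowest of its group for Mcidas (77.3 CPM, next 93.2) and for Tekt2 (9.46, next 13.3).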

How the results depend on the processing

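Intervals were wide for Dnah7a (-0.24 to 1.12 on the log2 scale, at 1.24 to 4.48 CPM) and also for the more abundant Sntn (-1.26 to 0.07), and what part depth has in this was not tested. Library size alone gave 7 members higher and 1 lower, a structural median of 0.026 instead of -0.087, and a shift of the median of all genes to 0.11. Upper-quartile factors gave 6 higher. The replicate block gave 3 higher and 5 lower, adding Dnah5, Sntn and Cdhr3. Replicate numbers share no stated origin. Deviations of same-numbered libraries correlated between -0.061 and 0.27, with 1 of 5 numbers its own best match. Such correlations cannot show whether same-numbered libraries shared a litter or batch, so any pairing is unknown. The Y-linked term gave 1 higher and 1 lower, as did a threshold of 0.01. Leaving out Control libraries 5 and 6 gave 4 higher, adding Cdc20b, 8 lower, and a structural median of -0.15. Low-Y libraries alone gave 0 lower, a structural median of 0.044, and 1932 genes higher and 1821 lower over all. High-Y libraries alone gave 0 higher and 1 lower, a structural median of -0.31, and 869 and 933 genes. Leaving out single libraries gave 1 to 6 members higher, 1 to 8 lower, a structural median of -0.16 to 0.032 (the latter without knockout library 2), and 2644 to 3120 genes higher and 2620 to 3269 lower. The cause of these changes was not tested. The median of the 8 regulator and centriole genes kept its sign throughout. Over 24 alternatives Deup1 lost its call in 1 (high-Y libraries alone), Tekt2 in 2, and Mcidas, Ccno and Ccdc113 in 6 each. Their edgeR, DESeq2 or limma adjusted p ran from 2.62e-04 to 0.245, 7.40e-04 to 0.201, 0.00284 to 0.327, 0.00202 to 0.566 and 0.00916 to 0.324 in that order. Of 912 member values, 67 changed sign (19 members), none with a call.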
